A study of Mus musculus with 6 samples.

Results

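The CIDE genes (*Cidea*, *Cideb* and *Cidec*) and the perilipin genes (*Plin1* to *Plin5*) encode proteins that sit on lipid droplets, and their RNA was followed in inguinal white fat (iWAT) of mice with an *Hlx* transgene and of their littermates. The members were chosen by family, as every gene with a CIDE or perilipin symbol, and all 8 are in the table of 19445 loci, each on 1 row. One group was 3 transgenic mice, which carry an *Hlx* cDNA behind a promoter fragment of *Fabp4* (aP2), and the other was 3 wild-type littermates, all 12 weeks old, with founders made on a C57BL/6 and SJL background and then crossed to C57BL/6. The *Fabp4* promoter is active in adipocytes and also, to a lesser degree, in macrophages, and which cells of iWAT expressed the transgene was not measured here. Both groups share the background and the tissue, and differ in the transgene. One library was made from each mouse, and the authors deposited an FPKM value (reads mapped to a gene, scaled for its length and for the size of the library) for each locus and mouse.

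CIDE proteins gather where lipid droplets touch and let lipid pass from the smaller droplet to the larger, so that droplets grow. *Cidec* (also called FSP27) is the form typical of white fat, *Cidea* of brown fat, and *Cideb* of liver, where it takes part in loading lipoproteins with lipid. Perilipins coat the droplet surface and set how lipases reach the stored triglyceride. *Plin1* is the main coat of adipocytes, *Plin2* and *Plin3* are found in most tissues, *Plin4* is typical of white fat, and *Plin5* is typical of oxidative tissues such as heart, muscle and brown fat, where it ties droplets to mitochondria.

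Of the 8 members, 5 (*Cidea*, *Cideb*, *Plin2*, *Plin3* and *Plin5*) were higher in transgenic iWAT at an adjusted p under 0.05 (limma on log2(FPKM + 1), Benjamini-Hochberg adjustment over the 11692 loci tested), where 11.6% of all tested loci were higher and 18.6% passed in either direction. None of the 8 was lower by this test, where 7.03% of all tested loci were, although *Plin4* was lower at an unadjusted p under 0.05. All 8 passed the filter of a mean above 1 FPKM in at least 1 genotype, and *Cideb* passed it only through its transgenic level. The genotypes did not overlap for 6 members, 5 higher and *Plin4* lower, where 42.9% of all tested loci did not overlap, 22.8% higher and 20.1% lower. The median log2 fold change over the 8 members was 0.86, against -0.01 over all tested loci. Each log2 fold change is transgenic minus wild type of log2(FPKM + 1), a scale that shrinks the differences of genes with low FPKM.

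The values of the whole table bear on these results as follows. *Hlx* had 79.6 to 110 FPKM in the transgenic mice and 6.88 to 8.14 FPKM in the wild-type mice, and the values do not part the transgene from the endogenous gene. The labels call the mice male, yet all 6 libraries held *Xist*, the RNA of the inactive X chromosome, at 20.2 to 33.6 FPKM, and all 28 loci on the Y chromosome were at 0, so the data go against that label in both groups. FPKM summed to 466059 to 542096 per sample, read counts were not used, and the absolute depth is unknown. The most frequent ratio between low values, under 0.3 FPKM, placed the depth of the other libraries at 0.689 to 1.41 times that of wild-type replicate 3, and the shallowest were transgenic replicates 1 and 3. Skeletal muscle markers (10 genes) summed to 1040 FPKM in transgenic replicate 2, against 249 to 418 FPKM in the other libraries, and 1 of the 10, *Myl1*, was higher by the test. Macrophage markers (8 genes) summed to 367 to 520 FPKM in the transgenic mice and 767 to 973 FPKM in the wild-type mice, and 5 of the 8 were lower by the test. Adipocyte markers (6 genes) summed to 27077 to 32235 FPKM in the transgenic and 23002 to 28422 FPKM in the wild-type mice, and *Fabp4* alone gave 82.8% to 91.1% of these sums. The other 5 adipocyte markers summed to 2516 to 2872 FPKM in the transgenic and 3705 to 4882 FPKM in the wild-type mice. Most of this sum came from *Adipoq* and *Lpl*, which were lower (limma, adjusted p = 0.0172 and 0.0209). *Slc2a4*, *Lep* and *Pparg* did not pass the test, with log2 fold changes of 0.55, -0.32 and -0.02 (limma adjusted p = 0.0736, 0.636 and 0.973). Of the other lists, 2 of 8 endothelial markers were higher, and 1 of 9 epithelial and 1 of 8 lymphocyte markers tested were lower, while none of 7 fibroblast and progenitor markers passed the test (limma, 2 at an unadjusted p under 0.05). The part of these cell types in the results was not tested. The milk protein gene *Wap* was at 0 in every library, while the milk protein genes *Csn2*, *Csn3* and *Lalba* were above 0 in each. *Csn3* had 28.9 to 71.1 FPKM in the transgenic and 44.3 to 90.6 FPKM in the wild-type mice. *Csn2* had 0.23 to 6.29 FPKM in the transgenic and 0.329 to 1.13 FPKM in the wild-type mice. *Lalba* was the epithelial marker that was lower, with a log2 fold change of -0.78 (limma adjusted p = 0.0362). In bulk tissue, fewer cells of a type and less RNA per cell cannot be told apart.

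In the GENCODE annotation of mm10, *Cidea* lies on a plus strand and the other 7 genes on minus strands. *Cideb* spans 55754050 to 55758458 of chromosome 14 and *Cidec* spans 113424634 to 113435760 of chromosome 6. *Plin1* spans 79720218 to 79732903 of chromosome 7 and *Plin2* spans 86648386 to 86670060 of chromosome 4. On chromosome 17, *Plin4* spans 56100591 to 56109803, *Plin5* spans 56111601 to 56117596 and *Plin3* spans 56277476 to 56292873. The longest coding transcript has 5 exons in *Cidea* and in *Cideb*, 6 in *Cidec*, 8 in *Plin2* and *Plin3*, and 9 in *Plin1*, *Plin4* and *Plin5*. The loci of the deposited table are wider than the annotated genes for *Cidea*, *Cideb* and *Plin4*, where they also take in *Impa2*, *Nop9* and *Hdgfrp2*. Those of *Cidec*, *Plin1* and *Plin2* are wider by a smaller margin.

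The sequences before the start sites of 3 of the members that rose are shown because nuclear receptors of the PPAR family, which bind the half-site AGGTCA, are known regulators of perilipin genes. They are RefSeq windows on the GRCm38.p6 build (mm10), read 5′ to 3′ on the minus strand, cut to the part that lies outside every annotated exon. The window of *Plin5* is chr17:56117599-56117798, that of *Plin2* is chr4:86670210-86670309, and that of *Cideb* is chr14:55758475-55758674. Capitals mark the letters AGGTCA or, on the other strand, TGACCT.
Plin5: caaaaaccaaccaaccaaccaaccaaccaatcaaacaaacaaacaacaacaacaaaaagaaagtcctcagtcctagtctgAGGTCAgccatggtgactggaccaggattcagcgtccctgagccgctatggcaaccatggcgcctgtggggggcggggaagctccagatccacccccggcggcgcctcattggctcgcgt
Plin2: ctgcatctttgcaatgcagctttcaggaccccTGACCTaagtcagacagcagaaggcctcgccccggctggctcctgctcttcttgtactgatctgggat
Cideb: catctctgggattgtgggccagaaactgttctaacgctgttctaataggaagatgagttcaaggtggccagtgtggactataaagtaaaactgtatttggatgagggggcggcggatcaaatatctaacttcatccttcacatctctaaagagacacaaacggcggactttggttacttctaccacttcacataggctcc
The full windows run from 250 bases before to 50 bases after a start site, and 7 of the 8 members matched by symbol, with 9 windows. *Cidea* had no entry. AGGTCA stood on either strand in 3 of the 9 member windows, those of *Plin5* and *Plin2*, and in 16.3% of all 32851 windows. In *Plin5* it began 170 bases before the start site, on the strand of the gene, and a second start site of *Plin5* had it 13 bases inside the transcript. In *Plin2* it began 218 bases before the start site, on the other strand. A pair of AGGTCA copies with 1 base between them, the consensus PPAR element, was in 0.0396% of all windows, and TAATTA, a core letter run that many homeobox proteins bind, was in 5.29%, both strands counted. Neither was in a member window, which says only that these letters are not there. *Cidea*, without a window, was outside this search. The paper used a motif specific to Hlx and reports a match in the *Cidea* promoter, with Hlx bound there in brown adipocytes.

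*Cidea* rose most by the log2 scale among the 8. It had 2123, 1498 and 1521 FPKM in transgenic replicates 1, 2 and 3, and 164, 106 and 110 FPKM in the wild-type replicates. The lowest transgenic mouse was 9.11 times the highest wild-type mouse. The means were 1714 ± 354 and 127 ± 32.7 FPKM (SD, n = 3 mice each), a 13.5-fold ratio and a log2 fold change of 3.76 ± 0.22 (SE, adjusted p = 0.000274 by limma), the 9th largest rise of the 11692 loci tested. By level, it moved from place 534 of 19445 loci in wild-type iWAT to place 27 in transgenic iWAT. *Ucp1*, the mitochondrial uncoupling protein of brown fat, is given as a reference and had a log2 fold change of 4.12 (limma adjusted p = 0.00106).

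*Cideb* was the least abundant member in both genotypes. It had 14.4, 5.01 and 8.11 FPKM in the transgenic mice and 0.232, 0.511 and 0.363 FPKM in the wild-type mice, and the groups did not overlap. *Cideb* passed the filter of a mean above 1 FPKM only through its transgenic level, which limits what its test can show. The ratio of the means was 24.9, the largest of the 8 members, and the log2 fold change was 2.79 ± 0.32 (SE, adjusted p = 0.00218 by limma). With a pseudocount of 0.1 in place of 1 it was 4.22, since the wild-type values lie below the pseudocount. The transgenic mice also varied most for this gene, with a coefficient of variation of 52.3%. *Nop9*, on the opposite strand, shares 1451 annotated bases with *Cideb* and was not analysed here, and the library kit does not mark strand, so reads of the shared bases cannot be told apart.

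*Cidec*, the typical CIDE gene of white fat, did not pass the test. It had 896, 1104 and 893 FPKM in the transgenic mice and 1531, 904 and 992 FPKM in the wild-type mice, and the groups overlapped. The highest value was that of wild-type replicate 1. The log2 fold change was -0.21 (95% confidence interval -0.74 to 0.31, limma adjusted p = 0.523), and without wild-type replicate 1 it turned to 0.019.

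**Figure D1:**
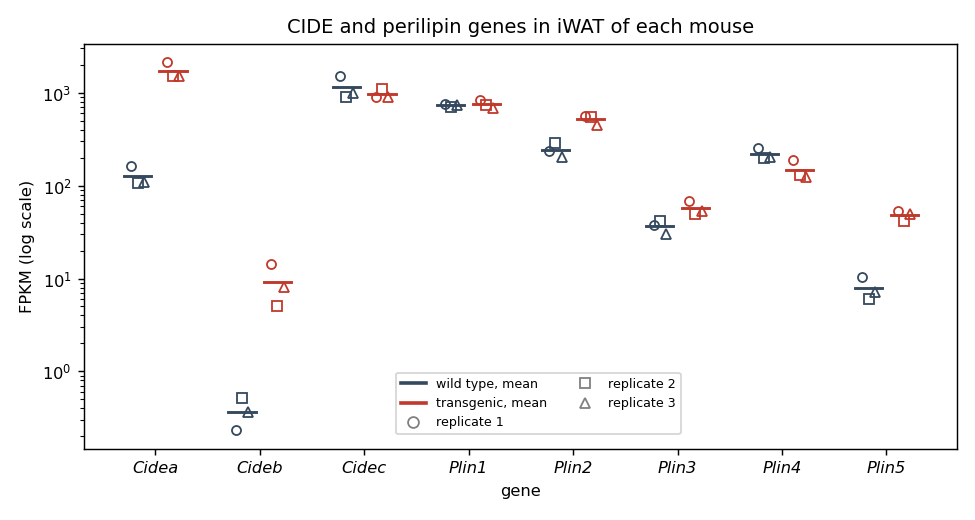
FPKM of each CIDE and perilipin gene (log axis) in the 3 wild-type mice (dark) and the 3 transgenic mice (red), with a bar at each mean and a marker shape for each replicate number. The groups lie apart for *Cidea*, *Cideb*, *Plin2*, *Plin3*, *Plin4* and *Plin5* and overlap for *Cidec* and *Plin1*.

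*Plin1*, the perilipin that holds lipolysis back in resting adipocytes, was at a like level in each mouse. It had 842, 743 and 680 FPKM in the transgenic mice and 748, 701 and 739 FPKM in the wild-type mice, and the groups overlapped. The log2 fold change was 0.04 (95% confidence interval -0.25 to 0.34, limma adjusted p = 0.823), and quantile normalization turned it to -0.27. The wild-type coefficient of variation, 3.39%, was the smallest of any member.

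*Plin2*, the coat protein (also called ADRP) that is stable only on lipid droplets, rose. It had 566, 551 and 449 FPKM in the transgenic mice and 236, 291 and 206 FPKM in the wild-type mice. Each transgenic mouse was above each wild-type mouse, by at least 1.55-fold. The ratio of the means was 2.14 and the log2 fold change was 1.10 ± 0.16 (SE, adjusted p = 0.00532 by limma). Macrophages also hold *Plin2*. Their summed markers were at 367 to 520 FPKM in the transgenic and 767 to 973 FPKM in the wild-type mice, and their part in the result was not tested.

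*Plin3* (also called TIP47), which moves from the cytosol to new droplets, rose by a margin that depended on single mice. It had 69.1, 49.3 and 53.3 FPKM in the transgenic mice and 37.9, 41.6 and 30.4 FPKM in the wild-type mice, and the groups did not overlap, with a gap of 1.19-fold between the nearest mice. The ratio of the means was 1.56 and the log2 fold change was 0.63 ± 0.16 (SE, adjusted p = 0.0376 by limma). Leaving out transgenic replicate 1 or 3, or any of the wild-type replicates, ended the call, with log2 fold changes from 0.49 to 0.72 and limma adjusted p from 0.0508 to 0.108.

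*Plin4* (also called S3-12) was the member with the most negative difference. It had 187, 129 and 123 FPKM in the transgenic mice and 257, 198 and 205 FPKM in the wild-type mice, so the highest transgenic mouse was below the lowest wild-type mouse. The log2 fold change was -0.60 (95% confidence interval -1.03 to -0.16), and the limma adjusted p of 0.0636 missed the threshold. Without transgenic replicate 1 the log2 fold change was -0.79 and passed it (limma adjusted p = 0.0201), as it did after quantile normalization, with -0.86 (limma adjusted p = 0.00789). *Hdgfrp2* overlaps the end of *Plin4* by 17 annotated bases on the opposite strand and had a log2 fold change of -0.06 (limma adjusted p = 0.720).

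*Plin5*, the perilipin of oxidative tissues, rose most among the perilipins. It had 53.8, 41.7 and 49.7 FPKM in the transgenic mice and 10.4, 5.95 and 7.21 FPKM in the wild-type mice, and the lowest transgenic mouse was 4.01 times the highest wild-type mouse. The means were 48.4 ± 6.17 and 7.85 ± 2.29 FPKM (SD, n = 3 mice each). The log2 fold change was 2.50 ± 0.19 (SE, adjusted p = 0.000665 by limma). Skeletal muscle also holds *Plin5*. Without transgenic replicate 2, the mouse with the highest muscle markers, the log2 fold change was 2.60 (limma adjusted p = 0.00205). The part of muscle in the result was not tested.

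**Figure D2:**
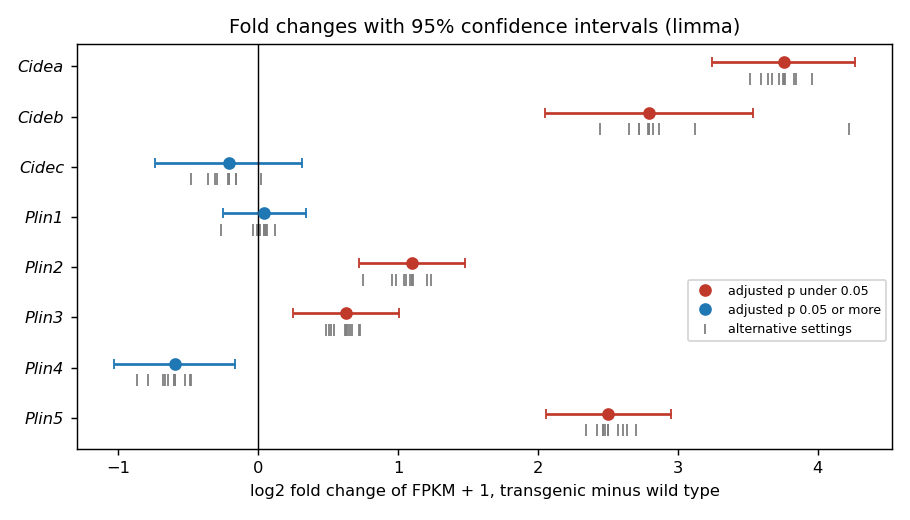
Log2 fold change of FPKM + 1 for each gene, transgenic minus wild type, with its 95% confidence interval (limma, 3 mice per genotype), in red where the adjusted p is under 0.05, with grey ticks for 14 alternative settings. *Cidea*, *Cideb* and *Plin5* lie above 2 under each setting shown, while the ticks of *Cidec* and *Plin1* fall on both sides of 0.

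With 3 mice against 3, the smallest two-sided p of an exact permutation test is 0.1. The exact permutation test gave p = 0.1 for each of the 6 members whose groups did not overlap, p = 0.5 for *Cidec* and p = 0.8 for *Plin1*. Deviations within a genotype often had the same sign across members. Transgenic replicate 1 was above its group mean for 7 of the 8 members, all but *Cidec*, and wild-type replicate 1 was above its group mean for 6.

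FPKM is scaled by length, so levels can also be ordered between genes. In wild-type iWAT the order from the highest mean was *Cidec*, *Plin1*, *Plin2*, *Plin4*, *Cidea*, *Plin3*, *Plin5* and *Cideb*, and *Plin2* and *Plin4* overlapped in their ranges. In transgenic iWAT the order was *Cidea*, *Cidec*, *Plin1*, *Plin2*, *Plin4*, *Plin3*, *Plin5* and *Cideb*, and only *Plin3* and *Plin5* overlapped in their ranges among neighbours in that order. *Cidea* thus stood in place 5 in wild-type and in place 1 in transgenic iWAT, above *Cidec* in each of the 3 transgenic mice.

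The make-up of the CIDE transcripts differed between the genotypes. *Cidea* gave 70.0%, 57.5% and 62.8% of the summed CIDE FPKM in the transgenic mice, compared with 9.69%, 10.5% and 9.96% in wild-type mice. The share of *Cidec* was 36.3% ± 6.42 in transgenic and 89.9% ± 0.415 in wild-type iWAT (SD, n = 3 mice each), although its own FPKM did not pass the test. The share of *Cideb* stayed under 0.5% in each mouse, with 0.476% the highest. The log2 ratio of *Cidea* to *Cidec* was 0.82 ± 0.40 in transgenic and -3.16 ± 0.063 in wild-type iWAT (SD, n = 3 mice each), and transgenic replicate 2 had the lowest transgenic ratio, 0.44.

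Within the perilipins, *Plin1* was the largest share in each mouse of both genotypes. It gave 49.0%, 49.1% and 50.1% of the summed perilipin FPKM in the transgenic mice, compared with 58.0%, 56.7% and 62.2% in wild-type mice. The share of *Plin2* was 34.2% ± 1.93 in transgenic and 19.7% ± 3.31 in wild-type iWAT, while that of *Plin4* was 9.52% ± 1.23 and 17.7% ± 2.00 (SD, n = 3 mice each). *Plin5* gave 3.18% ± 0.458 and 0.631% ± 0.164 (SD, n = 3 mice each). The share of *Plin3*, 3.74% ± 0.421 and 2.95% ± 0.401 (SD, n = 3 mice each), overlapped between the genotypes.

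**Figure D3:**
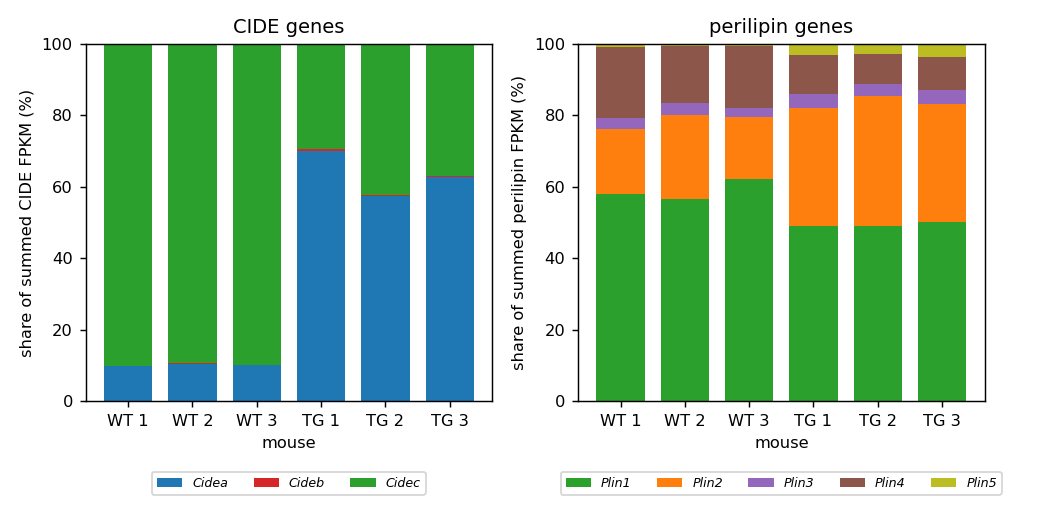
Share (%) of each gene in the summed FPKM of the CIDE genes (left) and of the perilipin genes (right) for each wild-type (WT) and transgenic (TG) mouse. *Cidea* takes 57.5% to 70.0% of the CIDE sum in the transgenic mice and 9.69% to 10.5% in the wild-type mice, and *Plin2* and *Plin5* take larger shares of the perilipin sum in each transgenic mouse.

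Against *Plin1*, which did not pass the test, the log2 ratio of *Plin5* was -3.97 ± 0.19 in transgenic and -6.58 ± 0.37 in wild-type iWAT, and that of *Plin2* was -0.53 ± 0.089 and -1.59 ± 0.29 (SD, n = 3 mice each). The ratio of *Plin4* to *Plin1*, chosen after the values were seen, was -2.38 ± 0.19 and -1.74 ± 0.17 on the log2 scale (SD, n = 3 mice each), lower in each transgenic mouse than in each wild-type mouse. Summed CIDE FPKM was 2688 ± 313 in transgenic and 1269 ± 372 in wild-type iWAT, and summed perilipin FPKM was 1529 ± 182 and 1238 ± 50.3 (SD, n = 3 mice each). The log2 ratio of these sums in the transgenic mice was 0.82, 0.78 and 0.84, above each wild-type ratio, which were 0.40, -0.29 and -0.11. Of these 16 shares, ratios and sums, 15 did not overlap between the genotypes, each with an exact permutation p of 0.1, the smallest possible, and 0.107 after adjustment over the 16. They are not independent, since each share draws on the same 8 genes.

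The genes around each member were measured too. The annotated *Cidea* gene spans bases 67343604 to 67367785 of chromosome 18. Of 33 tested loci within 50 kb of a member's deposited locus, 5 were higher (15.2%, against 11.6% of all tested loci) and none was lower (limma, 1 at an unadjusted p under 0.05). Some lie farther from the annotated gene, as the *Cidea* locus starts at 67289202. At the *Cidea* locus, *Impa2*, an inositol monophosphatase whose locus in the table overlaps that of *Cidea*, had 18.8 to 22.1 FPKM in the transgenic and 7.57 to 9.23 FPKM in the wild-type mice, with a log2 fold change of 1.19 (limma adjusted p = 0.000792). *Afg3l2*, a mitochondrial protease, had a log2 fold change of 1.00 (limma adjusted p = 0.00204). Its deposited locus starts 22.9 kb past that of *Cidea*, at the same distance as that of *Tubb6*, so the distance of the gene itself is not given. The other 3 tested neighbours of *Cidea* did not pass the test, with log2 fold changes of -0.03 for *Chmp1b*, -0.03 for *Mppe1* and 0.08 for *Tubb6*. *Dhrs1*, a dehydrogenase, lies 8 bases before position 55745692, where the *Cideb* locus starts at its *Nop9* end. The annotated *Cideb* gene starts at 55754050. *Dhrs1* had a log2 fold change of 0.49. *Fem1a*, near *Plin3*, and *Creld1*, near *Cidec*, had 0.40 and 0.37. The annotated genes of *Cidea* and *Impa2* share no bases.

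*Plin4*, *Plin5* and *Plin3* lie on the minus strand of chromosome 17, with 1564 bases between the loci of *Plin4* and *Plin5* and 160 kb from *Plin5* to *Plin3*. The near neighbours *Plin4* and *Plin5* had log2 fold changes of opposite sign, and that of *Plin4* missed the threshold. The log2 ratio of *Plin5* to *Plin4*, chosen after the values were seen, was -1.80, -1.63 and -1.31 in the transgenic mice, against wild-type ratios of -4.63, -5.06 and -4.83. On the other side of *Plin5*, *Lrg1*, a secreted glycoprotein 2116 bases away, had 132 to 151 FPKM in the transgenic and 132 to 156 FPKM in the wild-type mice and a log2 fold change of 0.02 (limma adjusted p = 0.907).

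**Figure D4:**
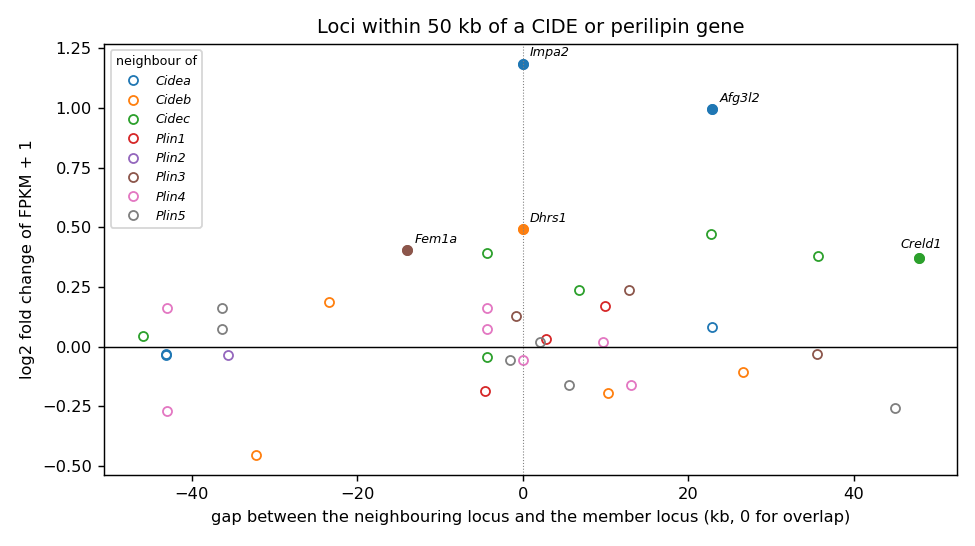
Log2 fold change of FPKM + 1 for each tested locus within 50 kb of the deposited locus of a CIDE or perilipin gene. The horizontal axis is the gap to that deposited locus in kb (0 where the loci overlap, negative at lower chromosome positions). Points are coloured by CIDE or perilipin gene and filled where the adjusted p is under 0.05. A locus near both *Plin4* and *Plin5* is drawn for each. *Impa2* and *Afg3l2* are the highest at 1.19 and 1.00, while the other 3 neighbours of *Cidea* lie between -0.03 and 0.08.

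Genes that build lipid droplets passed the test about as often as all tested loci. Of 20 listed, 17 were tested, and 2 were higher (11.8%, against 11.6% of all tested loci) and 1 was lower (5.88%, against 7.03%), and the median log2 fold change was 0.09. *Agpat6* (GPAT4), which starts triglyceride synthesis, rose from 46.4 ± 3.65 to 86.8 ± 11.8 FPKM (SD, n = 3 mice each; limma adjusted p = 0.00420). *Pcyt1a*, which makes the phosphatidylcholine of growing droplets, rose with a log2 fold change of 0.43 (limma adjusted p = 0.0249). *Mettl7b*, a droplet-associated methyltransferase, fell from 2.63 ± 0.266 to 1.08 ± 0.175 FPKM (SD, n = 3 mice each; limma adjusted p = 0.00548). Seipin (*Bscl2*) had a log2 fold change of -0.29 and *Dgat2* of 0.34 (limma adjusted p = 0.228 and 0.143). The count of higher genes was 1 without transgenic replicate 1 or 3 or without wild-type replicate 1 or 3, and 4 without transgenic replicate 2.

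Among the lipases and partners that work with perilipins, 4 of 15 were higher (26.7%, against 11.6% of all tested loci) and none was lower (against 7.03%), also at an unadjusted p under 0.05 (limma), and the median log2 fold change was 0.14. This list, like the others, was chosen with earlier results of these data known, so its share is a description and not a test. *Prkar2b* and *Prkaca*, a regulatory and the catalytic alpha subunit of the protein kinase A that phosphorylates *Plin1*, rose with log2 fold changes of 1.13 and 0.78 (limma adjusted p = 0.00441 and 0.0168). *Aqp7*, the channel through which glycerol leaves adipocytes, and *Mfn2*, a mitochondrial fusion protein, rose with 0.65 and 0.56. Without wild-type replicate 3 the count was 2. The lipases themselves did not pass the test, with log2 fold changes of 0.39 for *Pnpla2* (ATGL, on a locus listed with other symbols), 0.05 for *Lipe* (hormone-sensitive lipase) and -0.18 for *Mgll*. *Abhd5* (CGI-58), the ATGL co-activator held by *Plin1*, had 0.11, and *G0s2*, the ATGL inhibitor, had -0.22. *Fabp4*, whose promoter drives the transgene, had 24561 to 29363 FPKM in the transgenic and 19297 to 23539 FPKM in the wild-type mice (limma adjusted p = 0.531).

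Of 13 transcriptional regulators known to act on these genes or on brown fat, 6 were higher (46.2%, against 11.6% of all tested loci) and 1 was lower (7.69%, against 7.03%), and the median log2 fold change was 0.13. This list was chosen with earlier results of these data known, so its share is a description and not a test. The paper had already reported higher *Prdm16* RNA in these mice. The count of higher genes was 4 without transgenic replicate 3 or wild-type replicate 3, and 5 without wild-type replicate 2. *Ppara*, the nuclear receptor of fatty acid oxidation, had 27.1, 27.8 and 43.0 FPKM in the transgenic mice and 6.17, 2.54 and 4.85 FPKM in the wild-type mice. Its log2 fold change was 2.63 ± 0.29 (SE, adjusted p = 0.00192 by limma). *Ppargc1b*, *Esrra* (on a locus shared with *Prdx5*) and *Prdm16* had log2 fold changes of 1.49, 0.80 and 0.73, and *Rxra*, the partner of PPARs on DNA, fell by 0.51 on the log2 scale (limma adjusted p = 0.0133). *Pparg*, the main PPAR of adipocytes, had 95.7 to 193 FPKM in the transgenic and 101.1 to 169 FPKM in the wild-type mice, with a log2 fold change of -0.02 (limma adjusted p = 0.973).

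**Figure D5:**
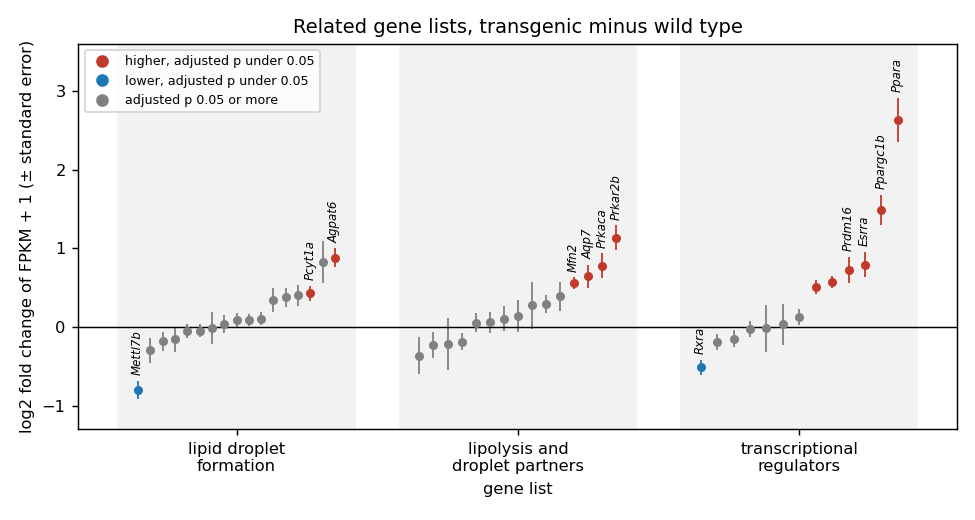
Log2 fold change of FPKM + 1 (transgenic minus wild type) with its standard error for each tested gene of 3 lists, sorted within a list, red for higher and blue for lower at an adjusted p under 0.05, with up to 4 names each. *Ppara* is the highest at 2.63, and most genes of the droplet formation list lie near 0.

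The loci whose log2(FPKM + 1) was most like that of a member over the 6 mice were listed by Pearson's r, as a description, since all loci share the 6 libraries and any large genotype difference gives a high r. For *Cidea* they were *Mfn2* and *Lace1*, and 773 of the 11692 tested loci had an r above 0.95 with it. For *Cideb* they were *Nek9* and *Tecpr2* (808 loci above 0.95), and for *Plin5* the locus of *Hyal1* and *Nat6* and then *Adck3*, now called *Coq8a* (707 loci). For *Plin2* they were *Aldoa* and *Fam40a* (351 loci), and for *Plin3* *Mttp*, the microsomal triglyceride transfer protein, and *Fam160b2* (381 loci). *Plin4* was most like *Twist1* and *Htra3*, with log2 fold changes of -0.35 and -0.49 that did not pass the test, and 50 loci were above 0.95. *Cidec* was most like *Prcc* and *Swi5*, and *Plin1* most like *Snx16* and *Rab33b*, with 15 loci above 0.95 for each. The r of these named loci ran from 0.977 to 1.00.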

How the data were processed

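RNA-Seq of iWAT from 3 *Hlx* transgenic and 3 wild-type mice was analysed. The authors made libraries with a TruSeq v2 kit, which does not mark strand, and sequenced single-end reads of 100 bases. The submitters' processing notes name CASAVA 1.8.2, TopHat2 2.0.9, Bowtie2 2.1.0, Cufflinks 2.2.1 and mm10, and the annotation is not given in the sources used here. The authors deposited FPKM per locus and mouse, already scaled by length and library, and no count test was used.

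The values were taken as log2(FPKM + 1), and 11692 loci with a mean FPKM above 1 in at least 1 genotype were compared between genotypes by limma 3.58.1 (R 4.3.3, eBayes with a mean-variance trend, two-sided, without covariates), with Benjamini-Hochberg adjustment and a threshold of 0.05. Single values were tested with an exact permutation test over 20 arrangements (two-sided, scipy 1.17.1). In simulated data with 11692 genes made for this comparison, 92% of 100 true 3-fold changes and 84% of 100 true 2-fold changes were recovered. The changes were placed only in genes above a minimum mean level, which *Cideb* does not reach. Noise was drawn for each gene separately, without differences between mice that genes share. Replicates are separate animals. Gene positions came from GENCODE and promoters from RefSeq, both on GRCm38, and list genes were matched by symbol, with 18 of 20, 15 of 15 and 13 of 13 found. The depth behind each value is unknown, so no counting interval is given. Genes named from lists were the called ones with the largest changes, up to 4 in each direction, and a few with known roles were added after their values were seen. The members and lists were chosen with earlier results of these data known. The alternatives were another pseudocount, other filters and scalings, no trend, sample weights, a replicate block and each mouse left out.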

Additional observations from a re-analysis of the deposited data

How the results depend on the processing

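*Cidea*, *Cideb*, *Plin2* and *Plin5* passed the test with the same sign in 14 of 14 alternative settings, *Plin3* in 7 of 14, and *Plin4* was negative in all 14 and passed in 4. No filter on low values ended the call of *Plin3* (log2 fold change 0.63, limma adjusted p = 0.0627). Quantile normalization gave *Plin4* -0.86 and *Plin1* -0.27, and sample quality weights gave *Plin4* -0.68 and *Plin1* -0.0079. With the replicate number as a block, *Plin3* lost its call at 0.63, just past the threshold, and *Plin4* gained one at -0.60 (limma adjusted p = 0.0195), so 1 member was lower under each of the block, the weights and quantile normalization. The block changed no other member's call. Mice with the same number correlated by 0.013, 0.034 and 0.070 in their deviations, and mice with different numbers by -0.186 to 0.135. Taken from means of 3 mice, these values cannot tell whether the numbers pair samples. The lower genes of the formation, partner and regulator lists numbered 2, 2 and 2 under quantile normalization, and the weights gave 4 higher formation genes. For each of these the cause was not tested. With each mouse left out, the log2 fold change ran from 0.49 to 0.73 for *Plin3*, from -0.79 to -0.48 for *Plin4*, from -0.36 to 0.019 for *Cidec* and from -0.037 to 0.12 for *Plin1*. Members called ran from 4 to 5 higher and from 0 to 1 lower. Formation genes ran from 1 to 4 higher, partner genes from 2 to 4 higher and regulator genes from 4 to 6 higher. All loci ran from 780 to 1295 higher and from 329 to 906 lower. Each of these fits has fewer samples by construction. The differences between genotypes in shares and ratios kept their sign in each of 8 alternatives and moved by less than 1 SD between mice, pooled over both genotypes. Each member has 1 locus, so summing loci was not applicable. The wild-type values of *Cideb* lie under 1 FPKM, and with the depth unknown their counting error cannot be given.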
